A study of Rattus norvegicus with 56 samples.

Results

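The comparison described here is one of spread and not of level. It asks whether mammary glands of rats that received an RXR treatment differed from each other more, or less, than those of control rats. It uses 24 of the 56 arrays of the series, the 12 treated and the 12 control rats that were each hybridised alone, with 1 array per rat and no repeat arrays or pools. For each of 15866 probe sets the standard deviation (SD) over the 12 treated rats was set against the SD over the 12 control rats. The result is given as a log2 SD ratio, treated over control, so that 0 stands for equal SDs and 1 for a doubled SD in treated rats.

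All rats were females of the inbred Wistar Furth strain, and none carried an allele or transgene that the labels name. The labels call one group RXR treatment and the other control, and the sources used here do not give the compound, the dose, the duration or the ages. Oestrous stage was uneven, with diestrus recorded for 6 of the treated rats and 9 of the controls and proestrus or estrus for the rest. Each rat was extracted on its own and counts as 1 replicate. Values are on a log2 scale, an array's median lay between 7.4 and 7.47, and the number of arrays limits the precision. For the labelled tissue, 14 milk genes had a mean of 9.45 in treated and 9.80 in control rats, 19 luminal epithelial genes 9.13 and 9.31, and Ckm, the creatine kinase of muscle, 6.43 and 6.38. Levels of different probe sets are not comparable with each other, so that these values describe the arrays and do not test the label.

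RXR, the retinoid X receptor, is a nuclear receptor that binds DNA as a partner of other receptors, among them those for fatty acids, oxysterols, vitamin D and retinoic acid, and so it stands at the junction of lipid and hormone signalling. The resting mammary gland is a tree of luminal and myoepithelial cells set in a pad of fat, with connective tissue, vessels, immune cells and often a lymph node. Its epithelium divides and regresses with each oestrous cycle. A bulk array reads all of these together, so that a rat with fewer cells of a type and a rat with less RNA per cell of that type cannot be told apart.

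Spread was only slightly larger in treated rats over all probe sets, and that difference was smaller than its error. The median SD was 0.119 log2 in treated and 0.112 in control rats. The median log2 SD ratio was 0.10 ± 0.14 (jackknife SE over rats), an SD ratio of 1.07, and 57.9% of probe sets had the larger SD in treated rats. Leaving out treated rats 3 and 10, whose arrays were rich in epidermal keratins, gave 0.12 and 59.7%. From percentile 5 to percentile 95, log2 SD ratios ran from -0.74 to 0.93. Across probe sets, which are not independent of each other, the SDs of both groups had a Spearman's rho of 0.697. These SDs also hold array noise: their median ratio to the SD of repeat arrays was 1.21 in treated and 1.12 in control rats. The part of that noise in the rho was not tested.

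No probe set passed the test of spread. With the Brown-Forsythe test, which compares absolute deviations from the group median, 0 of 15866 probe sets passed a Benjamini-Hochberg adjusted p of 0.05 (0%), and the smallest adjusted p was 0.966. At an unadjusted p under 0.05 the SD was larger in treated rats for 594 probe sets (3.74%) and smaller for 193 (1.22%). Without treated rats 3 and 10 the counts were 678 and 154, and again 0 passed. Single rats moved the smaller count by more: it was 307 without treated rat 14, beside 467 larger, 121 without control rat 14, beside 689 larger, and 117 without control rat 15, beside 770 larger. Without any other single rat the larger count ran from 411 to 678 and the smaller from 140 to 235. A test by limma on the same deviations passed 0, with 803 at an unadjusted p under 0.05, and the Fligner-Killeen rank test passed 0. The F test of variances, which is sensitive to single extreme rats, passed 12 probe sets (0.0756%), 10 with the larger and 2 with the smaller SD in treated rats. For scale, the difference in mean by limma passed 1343 probe sets higher in treated rats (8.46%) and 1522 lower (9.59%). A count of 0 in so wide an adjustment does not show that the spreads were equal.

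**Figure D1:**
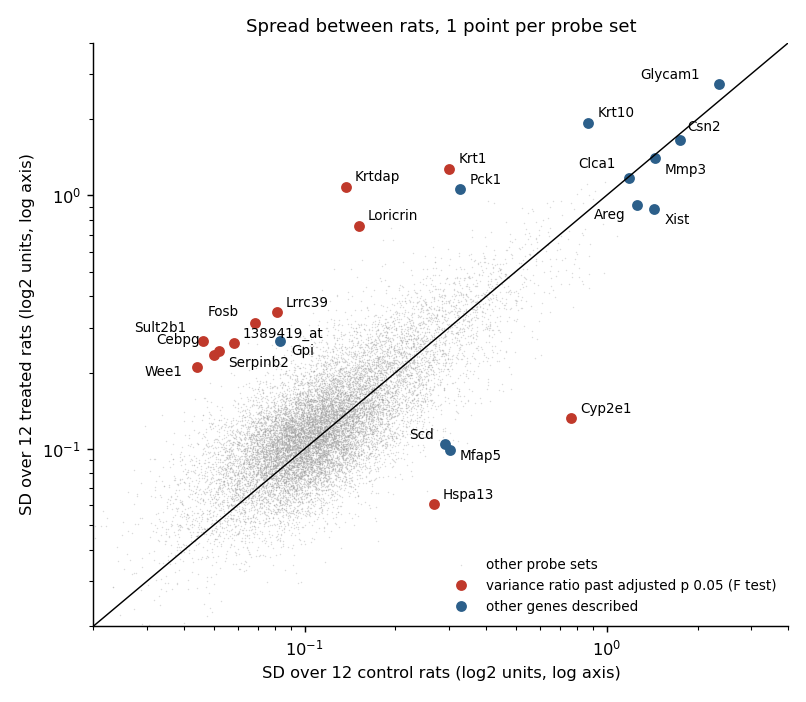
SD over 12 control rats (x axis) against SD over 12 treated rats (y axis), both in log2 units on log axes, with 1 point per probe set and a line of equality. Red points are the 12 probe sets past the F test of variances and blue points are other genes described in the text; Glycam1 and Csn2 lie at the top right, near the line, and Krtdap and Cyp2e1 lie far from it on either side.

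The rats themselves differed in how far they lay from their own group. Each rat's mean absolute deviation from the group median over all probe sets was used as 1 value per rat. In treated rats it ran from 0.0812 through a median of 0.110 to 0.143 log2, and in control rats from 0.0672 through 0.0946 to 0.158. The ranges overlapped almost wholly, and the 2 farthest rats of all were control rats 15 (0.158) and 14 (0.145), followed by treated rats 9 (0.143), 14 (0.137) and 6 (0.134). The treated rats averaged 0.110 ± 0.0203 (SD, n = 12) and the controls 0.101 ± 0.0278 (SD, n = 12), a difference of 0.00883 ± 0.00994 (SE; two-sided permutation test, p = 0.384). Without treated rats 3 and 10 the test gave p = 0.336.

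Some rats held more than an even share of the spread in both groups. Control rat 15 was the rat farthest from its group median in 23.4% of probe sets and treated rat 14 in 17.0%, where even sharing gives 8.33%. Of the variance within each group, treated rat 9 held 14.4% and control rat 14 held 15.9%. In treated rats 41.9% of the variance lay on 1 component, on which rat 9 had the most weight, 26.1%. In control rats 32.5% lay on 1 component led by rat 14, with 36.4% of the weight. The rest of the weight on each component lay on the other rats of the group. Repeat arrays also differ along a main axis, whose sign is arbitrary. Control rat 15 (15.1), treated rat 6 (10.0) and treated rat 14 (9.86) lay at one end of it, and control rat 3 (-12.5), treated rat 9 (-8.19) and treated rat 3 (-7.71) at the other, in a scale where the SD of the scores was 6.27 in treated and 6.77 in control rats. The part of this axis in the spread of single genes was not tested. With the axis removed the median log2 SD ratio was 0.13 and the per-rat difference 0.00793 (permutation test, p = 0.338).

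**Figure D2:**
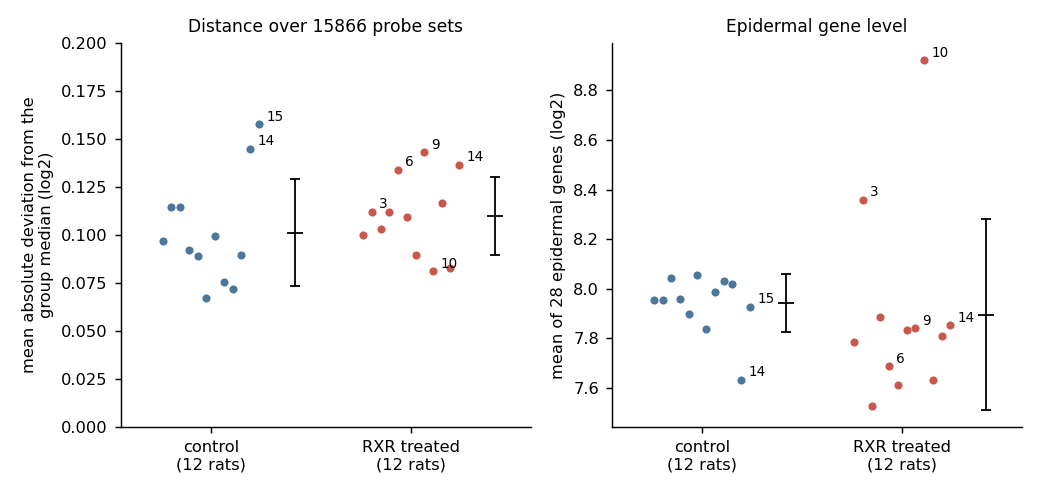
Left, the mean absolute deviation of each rat from its group median over 15866 probe sets; right, the mean level of 28 epidermal genes in log2. Points are rats, with some rat numbers given, and the bar to the right of each group shows mean and SD (12 rats each); control rats 14 and 15 lie farthest on the left, and treated rats 10 and 3 stand above all others on the right.

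Several large ratios belonged to genes of cornifying skin, and these came from 2 rats. Krt1 and Krt10 are the keratin pair of differentiating epidermis, and Krtdap and Loricrin are made in its upper layers. Krt10 ran from 5.17 through a median of 5.31 to 11.1 in treated and from 5.09 through 5.24 to 8.22 in control rats. Treated rats 10 (11.1) and 3 (9.10) and control rat 5 (8.22) were high, and the other 21 rats lay at 5.43 or below. Krt1 ran from 6.88 through 7.03 to 11.2 in treated and from 6.77 through 6.94 to 7.94 in control rats, with the same 3 rats on top. Krtdap was at 9.48 in treated rat 10 and 6.54 in treated rat 3, and at 6.12 or below in all other rats. Another probe set of Krtdap read 9.32 in treated rat 10 and 7.87 in treated rat 3. The ratios and tests given for Krtdap belong to the first of these probe sets.

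The log2 SD ratios of these genes fell away or turned when both rats were left out. Krtdap went from 2.98 ± 2.32 (jackknife SE) to -0.35, Loricrin from 2.33 ± 1.24 to -0.03, Krt1 from 2.08 ± 2.03 to -1.55, and Krt10 from 1.15 ± 2.97 to -3.58. By the F test of variances with Benjamini-Hochberg adjustment, Krtdap (adjusted p = 0.000879), Loricrin (0.0257) and Krt1 (0.0488) passed with all rats and not without treated rats 3 and 10 (0.895, 0.997 and 0.303). Without them Krt10 passed in the other direction (adjusted p = 0.000334), since control rat 5 then was the only rat with a high level. Serpinb2, an inhibitor of plasminogen activators that also passed the F test with all rats, was likewise highest in treated rats 10 (5.58) and 3 (5.02), and went from a log2 SD ratio of 2.22 to 0.32.

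The whole list of 28 epidermal genes showed the same. With all rats, 22 of 28 members had the larger SD in treated rats, beside 57.9% of all probe sets. The median log2 SD ratio was 0.65, beside 0.10 over all probe sets. Without treated rats 3 and 10, 9 of 28 did, beside 59.7% of all probe sets, and the median was -0.38. The list mean was 8.92 in treated rat 10 and 8.36 in treated rat 3, and ran from 7.53 to 7.89 in the other 10 treated rats and from 7.63 to 8.06 in control rats. In the 2 repeat arrays of treated rat 3 it was 8.38 and 8.44, and in the pools that hold these rats between 8.11 and 8.64. Both rats thus were high on more than 1 array. Krt5 and Krt14, keratins shared by basal epidermis and mammary myoepithelium, did not single out these 2 rats: Krt5 was 10.97 and 10.98 in them and up to 11.12 in control rats. The SD of the list mean was 0.384 in treated rats, 0.123 without the 2 rats and 0.116 in control rats.

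**Figure D3:**
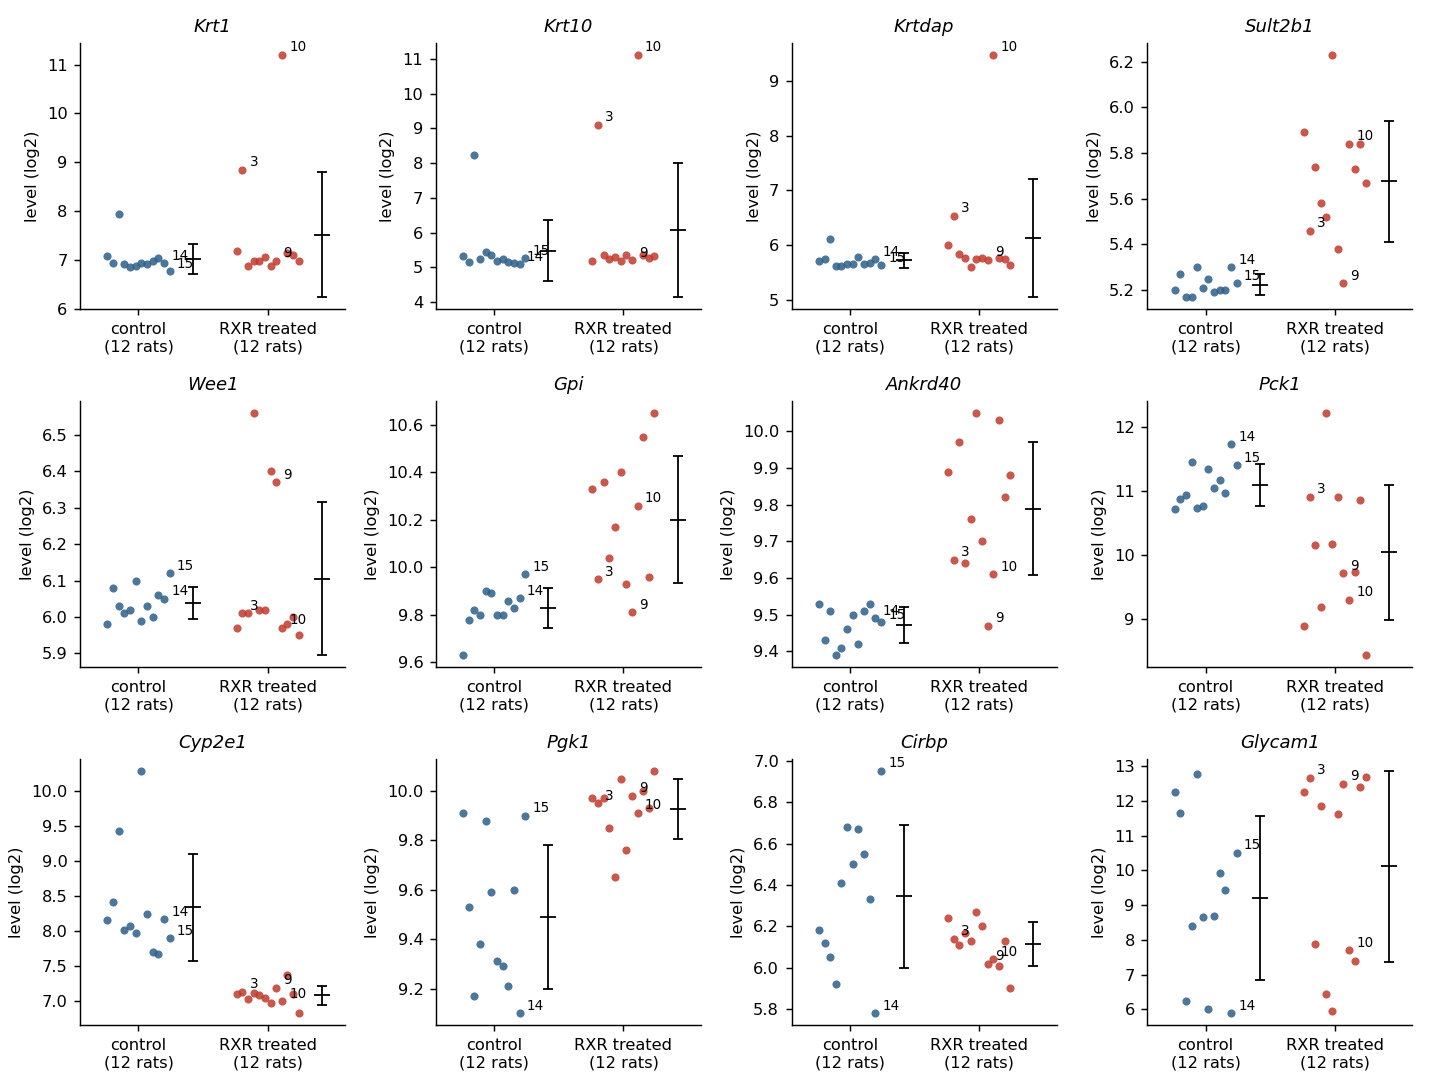
Log2 levels of 12 genes in each of 12 control (blue) and 12 treated (red) rats, with mean and SD as the bar beside each group and the numbers of some rats given. Krt1, Krt10 and Krtdap stand high in treated rats 10 and 3; Sult2b1, Gpi and Ankrd40 are spread out among treated rats, with rat 9 at the control level; Cyp2e1, Pgk1 and Cirbp are spread out among control rats.

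Genes outside the epidermal list also appeared among the 12. Sult2b1, a sulfotransferase of cholesterol and other sterols, ran from 5.23 through 5.70 to 6.23 in treated and from 5.17 through 5.21 to 5.30 in control rats. All but treated rat 9 lay above every control rat, so that the treated rats were higher and also more unlike each other. Its log2 SD ratio was 2.53 ± 0.46 (adjusted p = 0.00816, F test of variances) and 2.61 without treated rats 3 and 10, and it passed in each of 24 fits that left out 1 rat. Its mean differed by 0.45 log2 (limma adjusted p = 9.54e-05). The SD in control rats, 0.0460, was below that of repeat arrays, 0.105. All control values of Sult2b1 lay in the dimmest of 4 equal classes of level (4.19 to 6.11). The median SD of that class in control rats was 0.0816. The part of low level in the ratio of Sult2b1 was not tested.

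The other probe sets past the F test with the larger SD in treated rats were less steady. Wee1, the kinase that holds back entry into mitosis, was at 6.37, 6.40 and 6.56 in treated rats 9, 8 and 5 and at 6.12 or below in the other 21 rats. Its log2 SD ratio was 2.25 ± 0.49 (adjusted p = 0.0320, F test). Fosb, a member of the AP-1 family of stress and growth response factors, had 2.20 ± 1.38 (adjusted p = 0.0331), with treated rat 7 at 6.44 and the next at 5.59. Cebpg, Lrrc39 and a probe set without a gene name completed the group, with ratios of 2.22, 2.10 and 2.17. Leaving out 1 rat ended the call of Wee1 in 8 of 24 fits, of Fosb in 10, of Cebpg in 11, of the unnamed probe set in 12 and of Lrrc39 in 16. For 10 of the 12 probe sets past the F test the smaller of both SDs was below the SD of repeat arrays, beside 49.6% of all probe sets. The control medians of Krtdap, Serpinb2, Wee1, Fosb and Lrrc39 lay in the dimmest class of level, like that of Sult2b1. Those of the other probe sets past the F test lay above it. The part of low level in these calls was not tested.

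Cyp2e1, a cytochrome P450 that oxidises ethanol and other small molecules, was the leading case of a smaller spread by the F test. By the Brown-Forsythe test it did not reach an unadjusted p under 0.05. It ran from 6.83 through 7.10 to 7.38 in treated and from 7.68 through 8.12 to 10.3 in control rats, and the groups did not overlap. Control rats 10 (10.3) and 5 (9.43) were the highest. The SD was 0.132 in treated and 0.761 in control rats, a log2 SD ratio of -2.53 ± 0.84 (adjusted p = 0.00816, F test), and the mean was lower by -1.25 log2 in treated rats. The adjusted p was 0.0522 without treated rats 3 and 10, and the call was also lost without control rat 10 and kept in the other 23 fits that left out 1 rat. Hspa13, a chaperone of the HSP70 family, had -2.15 ± 1.35 (adjusted p = 0.0374), with control rat 15 at 7.16 and all others at 6.48 or below. It lost the call in 13 of 24 such fits.

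Beside Krt1 and Krt10, described above, 6 genes had the widest spread in either group, and these 6 had SDs over 0.5 in both. Glycam1, a mucin-like protein of milk and of lymph node vessels, ran from 5.96 through 11.7 to 12.7 in treated and from 5.89 through 9.07 to 12.8 in control rats. Treated rats fell into 7 at 11.6 or above and 5 at 7.88 or below, whereas control rats also lay between. Its SD was 2.74 and 2.36, a log2 SD ratio of 0.22 ± 0.27. Csn2, the milk protein beta-casein, ran from 6.28 through 8.78 to 12.6 in treated rats and from 6.18 through 10.1 to 11.7 in control rats, with SDs of 1.65 and 1.75. On linear values relative to the group median the log2 SD ratios were -2.31 for Glycam1 and 2.12 for Csn2, against 0.22 and -0.08 on the log2 scale. Neither was near the threshold (unadjusted p = 0.597 and 0.837, Brown-Forsythe test).

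The other genes of these 6 were Mmp3, a matrix protease, Clca1, Areg and Xist. Mmp3 had SDs of 1.41 and 1.45, with treated rats 7 (9.48) and 4 (9.37) and control rats 14 (10.15) and 5 (10.07) on top. Clca1 had SDs of 1.18 in both groups. Areg, the growth factor amphiregulin that oestrogen induces in mammary ducts, had 0.918 and 1.27. Xist, the RNA that coats the inactive X chromosome, had 0.881 and 1.43, with control rats 14 (6.30), 6 (7.07) and 15 (7.98) and treated rat 14 (6.66) low and the other rats at 9.01 or above. Repeat arrays had SDs of 0.0505 to 0.192 for these 4 genes. An SD over 0.5 was seen for 189 probe sets in treated and 158 in control rats, of which 97 were shared.

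Most of the probe sets that were clearly higher in treated rats also had the larger SD among them. Of 300 probe sets higher in mean by over 0.5 log2 (limma, adjusted p under 0.05), 238 (79.3%) had the larger SD in treated rats, and their median log2 SD ratio was 0.45 ± 0.23 (jackknife SE over rats) beside 0.10 over all probe sets. At an unadjusted p under 0.05 there were 53 (17.7%) with the larger and 3 (1%) with the smaller SD, beside 3.74% and 1.22% of all probe sets. The 71 probe sets lower by over 0.5 log2 had a median of -0.01. Over 4 equal classes of level, from dimmest to brightest, the median of all probe sets went from 0.08 to 0.13. With each deviation divided by the SD usual at its level the median of the raised probe sets was 0.35. The part of level in the result was not tested. The class was chosen on the same arrays, after the data were seen, and is described without a test.

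The mean of these 300 probe sets shows which rats held the spread. It ran from 9.08 through 9.62 to 10.00 in treated rats and from 8.56 through 8.73 to 9.07 in control rats. Treated rats 9 (9.08) and 3 (9.11) lay next to the highest control rats, 14 (9.07) and 15 (9.04), and rats 7, 11 and 4 lay highest. The SD of this mean was 0.290 in treated and 0.175 in control rats. Leaving out treated rat 9 took the median log2 SD ratio to 0.31, and leaving out treated rats 3 and 10 to 0.42. The mean of 21 adipocyte genes had the same treated rats at its ends, rat 9 lowest (9.52) and rat 7 highest (10.4). Its SD was 0.263 in treated and 0.212 in control rats. Of these 21 genes 10 were higher in mean in treated rats (limma, adjusted p under 0.05), beside 8.46% of all probe sets. The list may therefore share members with the 300 probe sets. The part of adipocyte genes in the result was not tested.

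Genes of sugar use included many of that kind. Of 27 measured genes of glucose and glycogen use, 21 had the larger SD in treated rats, with a median log2 SD ratio of 0.50, and 4 (of 27) at an unadjusted p under 0.05 with the larger against 0 with the smaller SD. Over all probe sets 57.9% had the larger SD, with 3.74% and 1.22% at that p. Gpi, which turns glucose 6-phosphate into fructose 6-phosphate, ran from 9.81 through 10.2 to 10.7 in treated and from 9.63 through 9.83 to 9.97 in control rats. Treated rats 9, 8, 3 and 12 lay within the control range and 8 lay above it. Its log2 SD ratio was 1.68 ± 0.61 (unadjusted p = 0.000477, Brown-Forsythe test, which did not pass adjustment). Gys2, a glycogen synthase, had 1.36, Hk2, a hexokinase, 1.10, and Mpc2, a subunit of the mitochondrial pyruvate carrier, 1.06. A probe set of Pgk1, a later enzyme of glycolysis, went the other way at -1.27 ± 0.51 (unadjusted p = 0.00324, Brown-Forsythe test). Control rats ran from 9.10 to 9.91 and treated rats from 9.65 to 10.1. This probe set is not among the 27 list members, of which Pfkp had the lowest ratio, -0.85.

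The list mean of glucose and glycogen genes had an SD of 0.251 in treated and 0.127 in control rats, and 0.223 in treated rats without rat 9. It ran from 9.53 (rat 9) through 10.0 to 10.3 (rat 14) in treated and from 9.12 through 9.27 to 9.53 (rat 15) in control rats. The mean of this list thus differed more between treated rats than between control rats, while treated rat 9 and control rat 15 met at 9.53.

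Mitochondrial genes looked similar. Of 25 respiratory chain genes 23 had the larger SD in treated rats, with a median of 0.47 and 3 at an unadjusted p under 0.05, beside 57.9% and 3.74% of all probe sets. Sdhb and Sdhc, subunits of succinate dehydrogenase, had log2 SD ratios of 1.07 and 0.85, and Uqcrfs1, the iron-sulfur subunit of complex III, 0.77. The SD of the list mean was 0.165 and 0.110. Without treated rat 9 the count was 19 of 25 and the median 0.30. Of 29 genes of fatty acid oxidation and PPAR targets, 22 had the larger SD, with a median of 0.47, led by Acadm (1.25), an acyl-CoA dehydrogenase, Cpt1b (1.21), which admits fatty acids to mitochondria, and Cpt2 (0.95). The SD of their list mean was the smaller one in treated rats, below the 0.106 of control rats, and Pdk4, the kinase that shuts off pyruvate oxidation, had -1.37.

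Fatty acid and triglyceride synthesis, of which 20 of 28 genes were higher in mean in treated rats (limma, adjusted p under 0.05, which 8.46% of all probe sets passed in this direction), was divided. Of 28 members 12 had the larger and 16 the smaller SD in treated rats, with a median of -0.07. Over all probe sets 57.9% had the larger SD. Gpam, which starts glycerolipid synthesis, had 1.84 ± 0.50 (unadjusted p = 0.00352), and Mlxipl, a glucose-responsive transcription factor, 1.14. Scd, a fatty acid desaturase, and Thrsp, a lipogenic nuclear protein, had -1.48 and -1.16. Scd ran from 13.74 up to the highest value of the deposited table in treated rats and from 12.75 to 13.77 in control rats. Pck1, the glyceroneogenic enzyme, ran from 8.43 through 9.95 to 12.2 in treated and from 10.71 through 11.01 to 11.73 in control rats, with 8 treated rats below every control rat and rat 6 above them all. Its log2 SD ratio was 1.69 ± 0.46 (unadjusted p = 0.00611), although its mean was lower in treated rats.

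**Figure D4:**
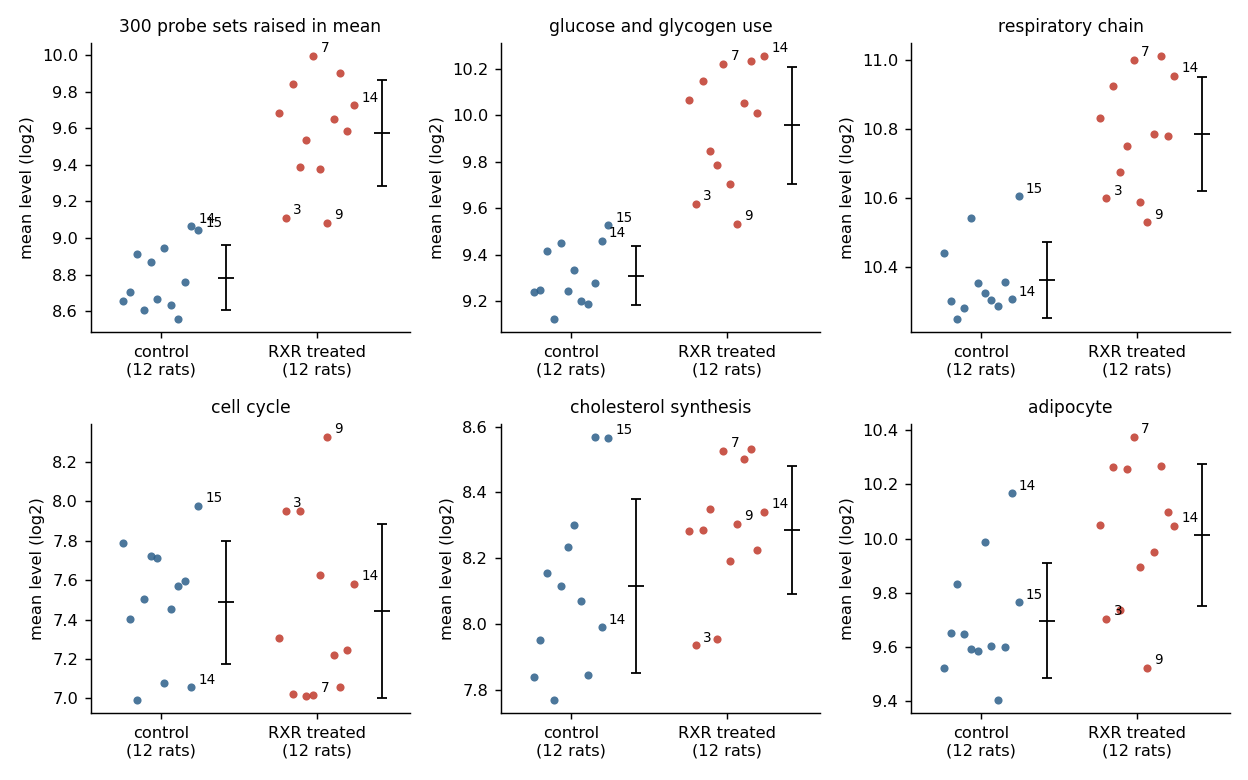
Mean log2 level of 300 probe sets raised in treated rats and of 5 gene lists, in each of 12 control (blue) and 12 treated (red) rats, with mean and SD as the bar beside each group. Treated rat 9 is lowest among treated rats for the raised probe sets, glucose, respiratory chain and adipocyte genes and highest for the cell cycle.

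All 22 measured cell cycle genes had the larger SD in treated rats, beside 57.9% of all probe sets, from 0.06 for Top2a, a topoisomerase of dividing cells, to 0.97 for Birc5, a mitotic regulator, with a median log2 SD ratio of 0.44. None of the 22 had an unadjusted p under 0.05, and these genes rise and fall together in dividing cells, so that 22 genes are far fewer than 22 separate observations. The list mean ran from 7.01 through 7.27 to 8.33 in treated and from 6.99 through 7.54 to 7.98 in control rats. Treated rats 9 (8.33), 3 and 5 (both 7.95) were high and the other 9 treated rats lay at 7.63 or below. The SD of the list mean was 0.442 in treated and 0.311 in control rats. Without treated rat 9 the count was 17 of 22, the median 0.17 and the SD 0.360.

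Some lists had more members with the smaller than with the larger SD in treated rats, where 57.9% of all probe sets had the larger. Of 17 cholesterol synthesis genes 12 had the smaller SD, with a median of -0.37, and 14 of 17 without treated rats 3 and 10. Idi1, Cyp51, Insig1 and Msmo1 of this pathway had -0.81, -0.65, -0.53 and -0.52. The list mean had an SD of 0.195 in treated and 0.265 in control rats, with control rats 13 and 15 at 8.57. Of 15 basal and myoepithelial genes 10 had the smaller SD, with a median of -0.35, led by Acta2, smooth muscle actin (-0.87). Of 26 fibroblast and matrix genes 20 did, with a median of -0.13, led by Mfap5, a microfibril protein (-1.61, unadjusted p = 0.00970). At an unadjusted p under 0.05 the SD was smaller for 0 of the 17, 0 of the 15 and 1 of the 26 members, beside 1.22% of all probe sets, and none passed adjustment.

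**Figure D5:**
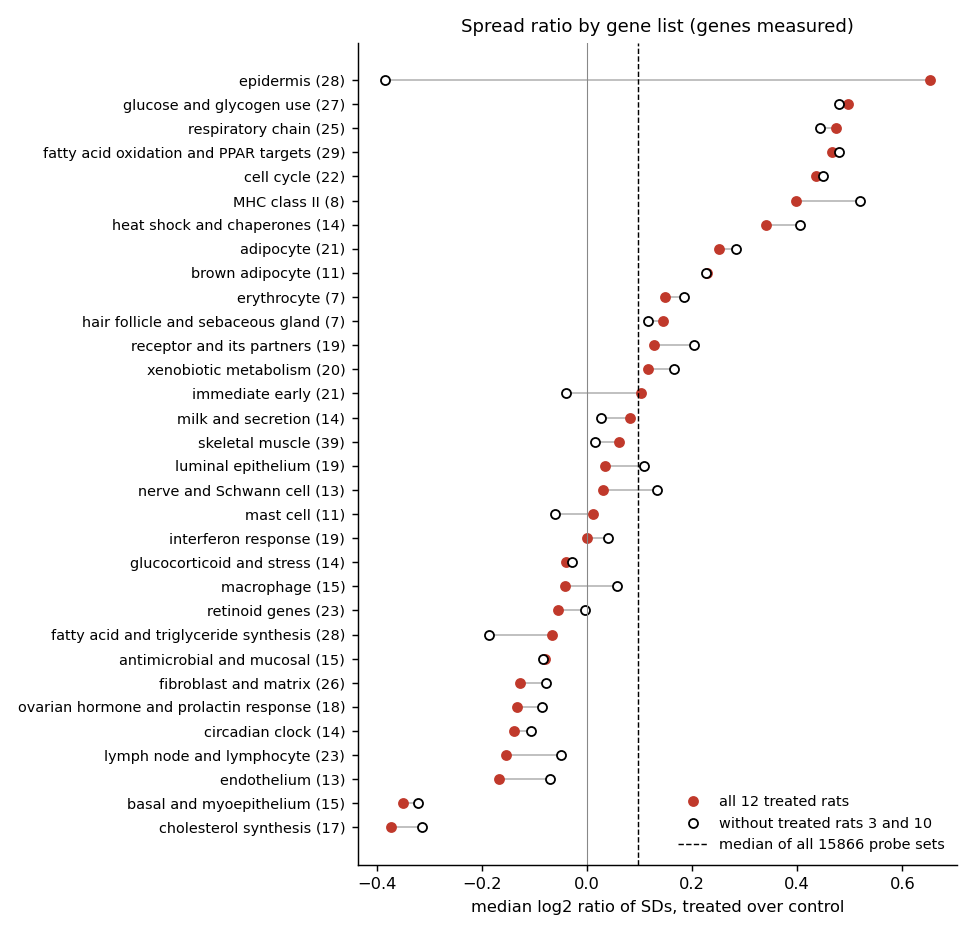
Median log2 SD ratio, treated over control, of 32 gene lists, with the number of genes measured in brackets. Red points use all 12 treated rats, open points leave out treated rats 3 and 10, and the dashed line is the median of all 15866 probe sets; the epidermis list moves from 0.65 to -0.38, and most others move little.

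Immune and epithelial lists were mixed. Over all probe sets 57.9% had the larger SD in treated rats. MHC class II genes had it for 7 of 8, with a median of 0.40, led by RT1-DMb (1.42), a chaperone of peptide loading. Luminal epithelial genes divided 10 to 9, with a median of 0.03, yet the SD of their list mean was 0.122 in treated and 0.0747 in control rats. Spint2, a protease inhibitor of epithelia, Krt18, a luminal keratin, and Gata3, the transcription factor of luminal identity, had 1.17, 0.94 and 0.88 (unadjusted p = 0.0130, 0.0167 and 0.0199). Prlr, the prolactin receptor, and Elf3 had -1.29 and -0.89. At an unadjusted p under 0.05, 3 of the 19 luminal genes had the larger and 1 the smaller SD, beside 3.74% and 1.22% of all probe sets. Macrophage (-0.04), interferon response (0.00), milk (0.08), skeletal muscle (0.06) and mast cell genes (0.01) had medians near 0, and lymphocyte genes had -0.15.

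The receptor's own genes did not stand apart. Rxra ran from 7.35 through 7.51 to 7.78 in treated and from 7.24 through 7.46 to 7.66 in control rats, with overlapping ranges and a log2 SD ratio of 0.59 ± 0.57 (unadjusted p = 0.0577). Rxrb and Rxrg had -0.13 ± 0.37 and -0.41 ± 0.56. Of 19 genes for the receptor and its partners 13 had the larger SD, with a median of 0.13, and none had an unadjusted p under 0.05. Of 23 retinoid genes 11 had the larger SD, with a median of -0.05. Over all probe sets 57.9% did, with a median of 0.10. Pnpla3, a lipid droplet enzyme higher by 2.91 log2 in treated rats, had SDs of 0.690 and 0.709, so that a large difference in mean came with no difference in spread that could be seen here.

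The smallest p-values of the test belonged to genes of varied function. Cd40, a receptor of antigen-presenting cells, ran from 6.89 through 7.30 to 7.67 in treated and from 6.58 through 6.71 to 6.97 in control rats, with only treated rat 9 inside the control range, with a log2 SD ratio of 1.32 ± 0.50 (unadjusted p = 0.000119). Tapbp, which loads peptides on MHC class I, had 1.36 ± 0.36, Sptb, a spectrin, 1.33 ± 0.30, and Ankrd40 1.90 ± 0.33. Ankrd40 ran from 9.47 to 10.1 in treated and from 9.39 to 9.53 in control rats, with treated rat 9 alone inside the control range. In the other direction Cirbp, a cold-induced RNA-binding protein, ran from 5.90 to 6.27 in treated and from 5.78 to 6.95 in control rats, a log2 SD ratio of -1.71 ± 0.44. Gtf2a2, a general transcription factor, had -2.02 ± 0.43 and Ptprf, a receptor phosphatase, -1.52 ± 0.39, and C1h11orf24 had -1.13 ± 0.35. None passed adjustment, and their order therefore is only a description.

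Oestrous stage was taken up because it was uneven between the groups. In the 6 treated and 9 control rats in diestrus the median log2 SD ratio was 0.04, and in the 6 treated and 3 control rats outside it 0.16. An SD over very few rats tends to fall below the true one. With 6 against 3 rats, equal spreads would therefore give a median above 0. These medians thus cannot be compared with each other, and the 0.16 does not show a larger spread in treated rats. A test by limma on deviations in diestrus passed 8 probe sets, all with the larger spread in treated rats: Pde4b, Tapbp, Wee1, Cbx2, Stra6, Elapor1, Rgs12 and Rnasek, with 931 at an unadjusted p under 0.05. Stra6, the membrane receptor for vitamin A carried by its plasma protein, ran from 7.14 through 7.57 to 8 in treated and from 7.08 through 7.34 to 7.46 in control rats in diestrus (limma adjusted p = 0.0284). Pde4b, a cyclic AMP phosphodiesterase, ran from 6.53 through 7.03 to 7.58 and from 6.72 through 6.87 to 7.06 (limma adjusted p = 0.0330). The treated rats reached both above and below the controls for Pde4b, and mainly above them for Stra6.

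These calls changed with the rats that were used. Leaving out any 1 of the 6 treated rats left 0 calls, and leaving out 1 control rat left between 0 and 48, the latter without control rat 15. Stra6 was called in 6 of these 15 fits and Tapbp in 5. A median of an odd number of rats is always 1 rat's own value, which lowers the deviations of that group. This holds for the 9 control rats, and for the treated rats once 1 of 6 is left out. These counts therefore do not separate the rat left out from the change in number. With deviations from the mean, corrected for the number of rats, 65 probe sets passed. Then 0 (without rat 7) to 115 (without rat 8) passed without 1 treated rat, and 12 to 133 without 1 control rat. The interaction of treatment and stage was fitted on absolute deviations in log2. It asks whether the difference in deviation between treated and control rats differs between stages, and not whether the SD ratio does. It passed 0 probe sets by limma, with 383 at an unadjusted p under 0.05.

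Spread between rats was set beside that between repeat arrays. The SD of repeat arrays, of rat 3 in each group or of the pool of 12, had a median of 0.0962 over probe sets, on 10 degrees of freedom. The 3 repeats of each pool are titled and described as the pool, while their source label names an individual gland. From the arrays of rat 3 alone the median was 0.103, on 4 degrees of freedom, and from the pools alone 0.0859, on 6. The median of the ratio to it was 1.21 for treated and 1.12 for control rats. In the 3329 probe sets whose SD over rats was more than 2 times that of repeat arrays, the median log2 SD ratio was 0.13, beside 0.09 in the others. At an unadjusted p under 0.05 the SD was larger in treated rats for 185 of these 3329 and smaller for 51. Over all 15866 probe sets it was larger for 594 (3.74%) and smaller for 193 (1.22%). Pools of the same rats, which are not independent of the arrays above, gave medians of 0.17 over pools of 2 and -0.08 over pools of 3. Among the genes described, Cyp2e1 had -2.83 and -2.62, Sult2b1 1.72 and 2.03, Gpi 0.86 and 0.41, and Wee1 2.38 and 0.32 in pools of 2 and of 3.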

How the data were processed

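Labelled RNA target of single rats was hybridised to expression arrays, from 5 µg of RNA per rat and 10 µg of target per array, per the labels' protocols. The authors deposited 1 value per probe set and array, which lies on a log2 scale by its range (4.12 to 14.08) and is rounded to 0.01; the software and normalization are not named in the labels or headers. Of 15923 probe sets, 57 array controls were left out. Of the 15866 tested, 12783 had 1 gene symbol, 312 several and 2771 none, and 12748 were updated through Entrez identifiers.

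SDs over 12 rats were compared with the Brown-Forsythe test (scipy 1.17.1, Python 3.11.15), with Benjamini-Hochberg adjustment over all probe sets. SD ratios carry jackknife errors over rats. Mean differences, deviations by stage and their interaction were fitted with limma 3.58.1 in R 4.3.3. Distances per rat were compared by a two-sided permutation test with 100000 resamples. The tests were checked on artificial data, in which the Brown-Forsythe test had little power after adjustment over all probe sets.

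The genes named were the 12 in each direction with the smallest p, the 6 with the largest SD in each group, up to 4 members with the smallest p per list, preset markers, receptor genes and Cyp2e1, Pnpla3 and Pck1. Probe sets past the F test, the stage fits and other genes given for a list were named after their values were seen. The members and the 32 lists were chosen with earlier results of these data known. The F test of variances without single rats, the class of raised probe sets, mean-centred deviations, the lists without treated rat 9, the unadjusted counts and stage fits without single rats and the split of the repeat arrays were added after the data were seen.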

Additional observations from a re-analysis of the deposited data

Results flagged for a closer look

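Among the control rats in diestrus, rat 14 had an epidermis list mean of 7.63, apart from the other 8, which lay between 7.93 and 8.06. It was 1 of 6 groups looked at in this way, and about 1 in 20 such groups stands out by chance. Appl2, an adaptor protein of endosomes, was the single probe set whose spread differed between stages by treatment when deviations were taken from the mean and corrected for the number of rats, with a coefficient of -0.46 ± 0.072 (limma adjusted p = 0.0246). Its SD in diestrus was 0.367 in treated and 0.193 in control rats, and outside diestrus 0.0859 and 0.380. With deviations from the median 0 probe sets passed by limma, with 383 at an unadjusted p under 0.05.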

How the results depend on the processing

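No probe set passed the Brown-Forsythe test under any other setting tried with it, and the median log2 SD ratio stayed between 0.04 and 0.21. The permutation p of the distance per rat ran from 0.102 to 0.654 over 36 settings. The F test of variances passed 12 probe sets, and 4 without treated rats 3 and 10. In diestrus limma passed 8, and 0 to 48 without single rats; mean-centred deviations passed 65 there and 1 in the interaction. The cause of these differences was not tested.

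Replicate numbers are shared by 10 treated and control rats. Their deviations correlated from -0.39 to 0.36, with 5 over 0.1 and a median of 0.12. These values cannot settle whether the numbers mark a pairing, and the main test took the rats as unpaired. With the number as a replicate block 0 probe sets passed, the median was 0.21 and the distance differed by 0.0141 (permutation p = 0.180). Under it Glycam1 (-0.036), Krt14 (-0.081) and Hbb (-0.46) changed sign.

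Among 2059 values of named probe sets, 61 changed sign. Without treated rats 3 and 10 these were Krt1 (-1.55), Krt10 (-3.58), Krtdap (-0.35), Loricrin (-0.028), Ckm (-0.34), Clca1 (0.089) and Mmp3 (0.069). In diestrus they were Krt1 (-2.33), Krt10 (-3.81), Krtdap (-1.03), Loricrin (-0.86), Clca1 (0.18), Mmp3 (0.041) and Csn2 (0.36). Quantile normalization turned Clca1 (0.074) and Rxrb (0.048), medians by group and stage Pnpla3 (0.040), removal of the repeat-array axis Glycam1 (-0.010), Pnpla3 (0.070) and Ckm (-0.057), and linear values Glycam1 (-2.31), Clca1 (0.087) and Csn2 (2.12). Without single rats the ranges were -0.42 to 0.72 for Ckm, -0.24 to 0.33 for Clca1, -0.52 to 0.11 for Csn2, -0.43 to 0.27 for Hbb, -0.24 to 0.30 for Mmp3, -0.33 to 0.088 for Pnpla3, -0.32 to 0.088 for Rxrb and -0.51 to 0.13 for Rxrg. With 12 rats a group and low SDs near those of repeat arrays, small ratios could not be told from noise.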
